A study of Caenorhabditis elegans with 26 samples.

Results

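The minor arms of 47 older-numbered hairpins of *Caenorhabditis elegans* were followed, out of 437 mature miRNA arms in the counts. A miRNA hairpin gives a 5p and a 3p arm, and the arm with the lower count summed over the 26 libraries is called its minor arm here, the other its major arm. Of the 190 hairpins with both arms listed, 102 are named miR with a number under 1000, which leaves out *let-7*, *lin-4* and *lsy-6*. Of these 102, 71 remained once the miR-35 and miR-44 groups, miR-235 and a list of further named hairpins were set aside. Some hairpins set aside by name had arm ratios that changed or were rhythmic in these data. Comparisons of the 47 with all miRNAs or hairpins therefore partly reflect this choice. A minimum sum of 130 counts then left 47 minor arms and removed 24. Which arm is the minor one was decided by these counts, so that its overall ratio to the major arm is below 1 is a description and was not tested. The smallest sums inside the minimum were 165 counts for miR-232-5p, 159 for miR-236-5p and 148 for miR-392-5p, and the largest outside it were 128 for miR-233-5p, 123 for miR-253-5p and 106 for miR-255-3p.

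Small RNAs came from whole larvae that were harvested every hour between 18 h and 30 h after synchronized L1 animals had been placed on food at 25 °C. Wild-type N2 was set beside HW2643, which carries the edited allele *mir-235(xe181[seed_mutant])* on chromosome I and is written *mir-235(seed_mut)*, or simply the mutant, to ask how the seed of miR-235 bears on its rhythmic accumulation. In this allele, bases in the seed of miR-235-3p were exchanged and the opposing strand of the hairpin was adapted. Each strain gave 13 libraries from a single series of cultures, 1 library per hour, so a strain cannot be told apart from its culture, nor an hour from its library. All values are from whole animals, in which fewer cells of a type and less RNA per cell cannot be told apart.

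Dicer cuts both arms out of a hairpin as a duplex, one strand of which is kept by an Argonaute protein as the guide while the other, the passenger or miR\*, is usually discarded and short-lived. The ratio of the arms therefore reflects which strand is loaded and how long each one lasts. Technical biases may also shift the measured level of each strand, for which the study put a scaling factor in its model. The seed near the 5′ end of the retained strand selects the targets, and several hairpins followed here belong to large worm families that share a guide seed, among them the miR-51 family, needed for embryonic development and pharynx attachment, and the miR-58 family, which acts in growth and TGF-β signalling.

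Library totals ranged from 1342771 to 4279734 counts. The lowest total was that of the N2 library at 23 h. For muscle, miR-1-3p lay between 20770 and 40020 CPM (the count scaled by the library total). Markers of intestine (miR-60-3p, 21.6 to 123 CPM) and of neurons (4 miRNAs, 51.3 to 132 CPM summed) were low in these whole larvae, and the 8 miR-35 family guides, marks of embryos, summed to 884 to 2116 CPM. The N2 library at 23 h and the mutant library at 24 h stood apart in the arm shares, and counts and several values that they move are also given without them.

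Together, the 47 minor arms held 749316 counts, 0.961% of all counts. Their sum was steady over the time course, between 0.852% and 1.12% of the library in N2 and between 0.828% and 1.13% in the mutant. The ranges of the strains over all hours overlapped. Single arms were far apart, from 114083 counts for miR-54-5p to 148 for miR-392-5p, with a median of 4983. The ratio of the arm sums was at least 0.5 in 8 hairpins, between 0.1 and 0.5 in 12, between 0.01 and 0.1 in 14, and below 0.01 in 13. The median ratio was 0.0466, beside 0.0604 for the 41 other minor arms that reach the same minimum.

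**Figure D1:**
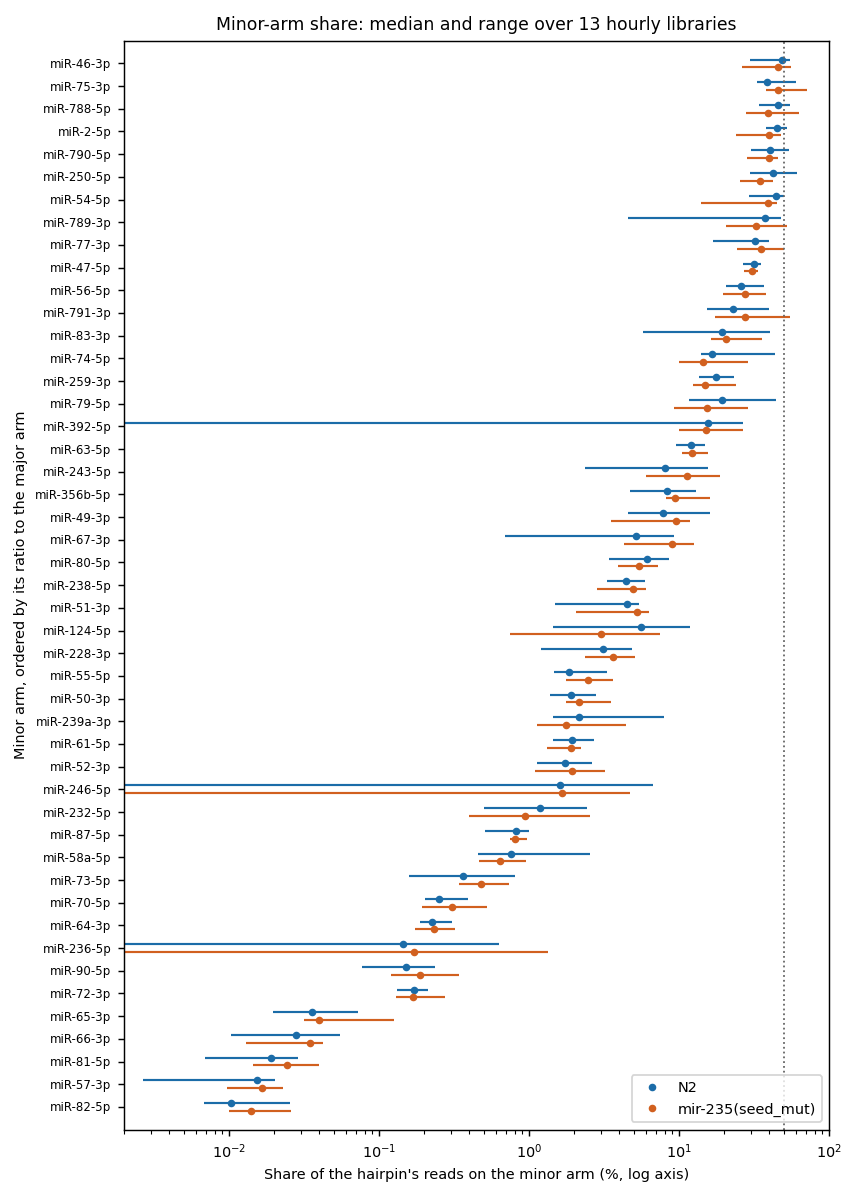
Share of a hairpin's reads that lie on its minor arm, in percent on a log axis, for the 47 minor arms ordered by the ratio of the arm sums. Points are medians and lines the range over 13 hourly libraries in N2 (blue) and *mir-235(seed_mut)* (orange), a line that reaches the left edge includes a library with 0 reads of the minor arm, and the dotted line marks 50%. Medians span from about 0.01% for miR-82-5p to near 50% for miR-46-3p, and the ranges of the strains overlap for every arm.

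The most even hairpins were those of miR-46, miR-75, miR-788, miR-2 and miR-790, with minor to major ratios of 0.849 (miR-46-3p), 0.795 (miR-75-3p), 0.775 (miR-788-5p), 0.725 (miR-2-5p) and 0.660 (miR-790-5p). At the other end stood miR-82-5p (ratio 0.000138), miR-57-3p (0.000153), miR-81-5p (0.000217), miR-66-3p (0.000316) and miR-65-3p (0.000463). For miR-82 this is 7225 major-arm reads for each minor-arm read. miR-57, whose guide restrains posterior patterning genes in the tail, had between 2.98 and 15.5 CPM of miR-57-3p in N2 (median 10.4) and between 6.02 and 15.5 CPM in the mutant (median 9.91).

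The minor arm was the 5p arm in 28 hairpins and the 3p arm in 19. The median ratio was 0.0537 for minor arms on the 5p side and 0.0448 for those on the 3p side. All 47 hairpins were found by name in the WBcel235 annotation, 15 on chromosome X, 11 on IV, 9 on III, 5 on V, 4 on II and 3 on I. The genes of 14 hairpins lay within another gene on the same strand, such as *mir-50* in *tln-1*, *mir-70* in *pmp-5*, *mir-82* in *gid-2*, *mir-87* in *kup-1*, *mir-124* in *trpa-1* and *mir-67* in *zmp-1*. A further 4 lay only opposite a gene on the other strand, among them *mir-81*, also at *gid-2*. Another miRNA gene of the same strand had its start within 10000 bases in 19 cases.

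The share, the minor-arm reads in percent of the reads of both arms, was compared between hairpins of neighbouring genes, and most of these clusters held far-apart shares. Shares are as measured, with no correction for technical biases between arms or hairpins. In the *mir-54* to *mir-56* cluster on chromosome X, the share over all N2 reads was 43.6% for miR-54-5p, 26.8% for miR-56-5p and 2.10% for miR-55-5p, a span of 20.8-fold, and the span in the mutant was 12.3-fold. The *mir-73* to *mir-75* cluster, also on X, went from 0.400% for miR-73-5p to 39.5% for miR-75-3p in N2, a 98.7-fold span, and 101-fold in the mutant. For *mir-61* and *mir-250* on chromosome V, the shares were 2.08% and 40.6% in N2, 19.5-fold apart. The guide of miR-61 is known from vulval patterning, where it acts in LIN-12/Notch signalling. In the genes *mir-64*, *mir-65* and *mir-66*, which lie inside *gcn-1* on chromosome III, all 3 shares were low, from 0.0312% for miR-66-3p to 0.230% for miR-64-3p in N2, a 7.37-fold span, with miR-65-3p (0.0410%) within 1.31-fold of miR-66-3p. Among *mir-80*, *mir-238* and *mir-90* on chromosome III, miR-80-5p (6.01%) and miR-238-5p (4.46%) were 1.35-fold apart in N2 and miR-90-5p (0.153%) was far lower. For *mir-228* and *mir-790* on chromosome IV the shares of miR-228-3p and miR-790-5p were 3.12% and 40.8%, a 13.1-fold span.

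Hairpins that share a guide seed also differed in their arm shares. Within the miR-58 family, the N2 share over all reads was 6.01% for miR-80-5p and 0.0119% for miR-82-5p, 506-fold apart, and 351-fold apart in the mutant. In the miR-72 family the span in N2 was 110-fold, between miR-72-3p (0.169%) and miR-74-5p (18.5%). The 5 minor arms of the miR-51 family spanned 23.9-fold, from 1.83% for miR-52-3p to 43.6% for miR-54-5p. Pairs were closer, with miR-47-5p at 30.5% beside miR-46-3p at 47.9%, and miR-239a-3p at 2.53% beside miR-238-5p at 4.46%. The pair miR-90-5p and miR-50-3p was 12.7-fold apart (0.153% and 1.95%). The shared seeds named here are textbook families and were not read from sequences. In several hairpins the arm with the family seed was itself the minor one in these counts. These are miR-46-3p, whose seed is that of miR-47-3p, miR-75-3p, whose seed is that of miR-79-3p, and miR-49-3p and miR-83-3p, the worm relatives of the miR-29 family. Reads that match several places in the genome were kept by the authors, so closely similar arms may share reads, which was not checked.

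In some libraries the minor arm of an even hairpin outnumbered its major arm, from 1 of 26 for miR-54-5p to 10 of 26 for miR-46-3p. miR-46-3p made up between 29.5% (23 h) and 54.9% (18 h) of its hairpin in N2, with a median of 48.2%, while the mutant spanned 26.3% (18 h) to 55.3% (25 h), with a median of 45.7%. It outnumbered miR-46-5p in 6 N2 and 4 mutant libraries, and the strains overlapped over nearly their whole range. At 18 h the strains were at opposite ends.

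miR-54-5p, the most abundant of all 47, ranged from 995 to 2068 CPM in N2 (median 1379) and from 1175 to 1936 CPM in the mutant (median 1454). The N2 share was lowest at 29.2% (25 h), had a median of 44.6% and was highest at 50.2% (21 h), the only library in which it led. In the mutant the lowest share was 14.1% (24 h), the median 39.1% and the highest 45.1% (22 h). The mutant share exceeded that of N2 at 2 of 13 hours. The mean was 44.0% ± 5.56 (SD, n = 13) in N2 and 35.2% ± 9.26 (SD, n = 13) in the mutant, and the ranges overlapped.

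miR-250-5p had shares between 29.7% and 60.8% in N2 (median 42.4%) and between 25.5% and 42.4% in the mutant (median 34.8%). It led its hairpin in 3 N2 libraries and in none of the mutant. miR-2-5p, encoded in *ppfr-1* on chromosome I next to *mir-71*, had shares from 38.2% to 52.7% in N2 (median 44.7%) and from 24.0% to 47.8% in the mutant (median 39.7%), and led in 4 N2 libraries. For both hairpins the share was higher in N2 than in the mutant at 10 of 13 hours.

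miR-75-3p went the other way. Its share was between 32.9% and 60.5% in N2 (median 38.4%) and between 37.7% and 71.2% in the mutant (median 45.6%). At 11 of 13 hours the mutant had the higher share, and miR-75-3p exceeded miR-75-5p in 1 N2 and 6 mutant libraries. The highest values, at 25 h in N2 and at 24 h in the mutant, stood well above all others of their strain.

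For miR-788, a miRNA whose decay the study examined, the 5p arm ranged from 34.1% to 55.2% in N2 (median 45.9%) and from 27.9% to 63.1% in the mutant (median 39.1%). miR-788-5p led in 4 N2 libraries (25 h and 27 h to 29 h) and in the mutant at 24 h alone. In the study's own modelling, miR-788-5p, miR-77-3p, miR-790-5p and miR-49-3p are the guide strands, so that the minor arm by these counts is the study's guide in those hairpins. The study also followed miR-247, whose minor arm miR-247-5p had 30 counts in all beside 6674 of miR-247-3p and was not followed.

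Of the less abundant even hairpins, miR-790-5p (30.3% to 54.3% in N2, 28.2% to 45.7% in the mutant) led in 3 N2 libraries. miR-789-3p (4.60% to 47.5% in N2, 20.7% to 52.2% in the mutant) and miR-791-3p (15.3% to 39.8% and 17.2% to 54.5%), from a miRNA of the CO2-sensing neurons, each led in 1 mutant library, at 24 h. miR-77-3p (16.8% to 40.01% and 24.3% to 50.1%) led in the mutant at 20 h. With these, 10 of the 47 minor arms led their hairpin in at least 1 library. The counts behind miR-789, miR-790 and miR-791 are small, and a value such as the 4.60% of miR-789-3p at 23 h in N2 rests on 4 of 87 reads (Wilson 95% interval 1.80% to 11.2%).

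**Figure D2:**
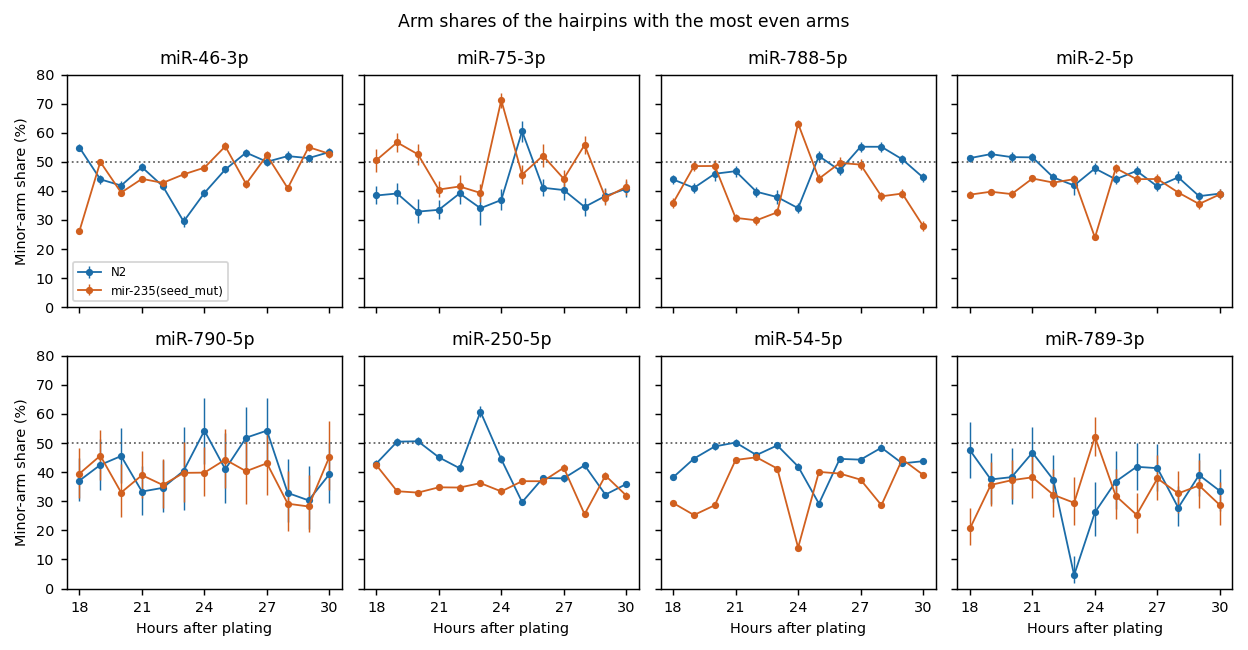
Share of reads on the minor arm, in percent, by hours after plating, in the 8 hairpins with a minor to major ratio of at least 0.5, for N2 (blue) and *mir-235(seed_mut)* (orange). Error bars are Wilson 95% intervals, which cover counting error only, and the dotted line marks 50%. At 24 h in the mutant miR-54-5p and miR-2-5p are at their lowest (14.1% and 24.0%) and miR-75-3p and miR-788-5p at their highest (71.2% and 63.1%).

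Shares varied between libraries beyond counting error in most hairpins. The variance of the share over the 26 libraries was more than 2 times the binomial counting variance for 40 of 47 arms, with a median of 13.01 times and a range from 0.767 to 539. This spread includes differences between the strains and trends over time, and it was computed for these 47 hairpins only. A few libraries held much of it. In N2 at 23 h, 24 of the 47 shares were at their highest (8) or lowest (16) of the strain, and in the mutant at 24 h it was 17 (10 and 7), while the other 24 libraries held 2 to 14 each. Such counts for the other hairpins are not given here, so they do not show a trait of the 47 alone. Over the 30 hairpins in which both arms averaged at least 50 counts, the root mean square distance of the log2 ratio from the strain's median was 0.98 in N2 at 23 h and 0.69 in the mutant at 24 h, beside 0.22 to 0.55 in the other libraries. Over 24 other hairpins chosen by the same minimum it was 0.85 and 0.68, within the 0.21 to 0.94 of the other libraries.

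**Figure D3:**
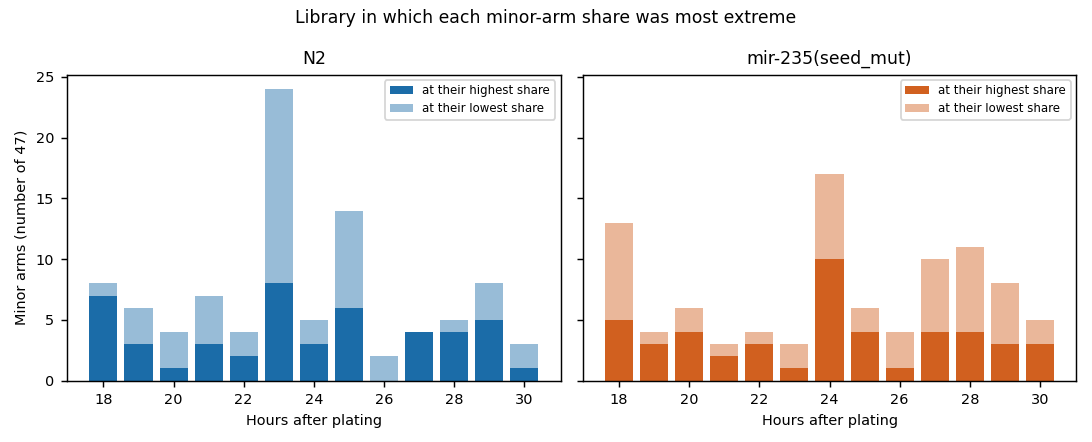
Number of minor arms, of 47, whose share was at its highest (dark) or lowest (light) of the strain's 13 libraries in each hourly library of N2 (left) and *mir-235(seed_mut)* (right). The bars reach 24 in N2 at 23 h and 17 in the mutant at 24 h.

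Either arm could be the one that stood apart at these hours. In the mutant at 24 h miR-54-3p stood at 7832 CPM, beside 1798 to 4648 CPM in the other mutant libraries, and miR-54-5p at 1282 CPM, within its range of 1175 to 1936 CPM. miR-2-3p was likewise at 2529 CPM, beside 527 to 1391 CPM elsewhere, and miR-2-5p, at 798 CPM, within its range. In the same library the minor arms stood out for miR-788, with miR-788-5p at 1254 CPM beside 274 to 569 CPM elsewhere, and for miR-75, with miR-75-3p at 309 CPM beside 92.8 to 172 CPM elsewhere.

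In N2 at 23 h the share of miR-58a-5p was 2.54%, beside 0.454% to 0.973% in the other 12 libraries. miR-58a-3p, the guide, had 51354 CPM there and 123511 to 196522 CPM elsewhere, whereas miR-58a-5p had 1336 CPM, inside its range of 814 to 1360 CPM. miR-74-5p (43.8%, elsewhere 13.9% to 26.3%) and miR-79-5p (44.4%, elsewhere 11.7% to 26.0%) were also highest in this library, where miR-74-3p and miR-79-3p were at 173 and 101 CPM beside 342 to 579 and 200 to 495 CPM elsewhere. The guide of miR-79 acts in neuronal migration. Shares of miR-228-3p (1.21%, elsewhere 2.37% to 4.82%) and miR-46-3p (29.5%, elsewhere 39.3% to 54.9%) were lowest there. Of the 47 minor arms, 25 had their lowest CPM of the strain in this library, which also had the lowest total count. The same count over all other arms is not given here. The part of depth or handling in these shares was not tested.

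The deviations of these libraries were not mirror images of each other. Across the 30 hairpins, the log2 ratio deviations in N2 at 23 h and in the mutant at 24 h had Pearson's r = -0.0089, those in N2 at 25 h and in the mutant at 24 h r = 0.50, and those in N2 at 23 h and N2 at 25 h r = -0.51. These are descriptions across hairpins, which share their library and are not independent.

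To ask which minor arms increased or decreased steadily, counts of all mature miRNAs were fitted with edgeR's quasi-likelihood test, with a linear term in hours shared by the strains beside strain and a 7 h rhythm within each strain. Calls were made at a Benjamini-Hochberg adjusted p under 0.01 over the 217 miRNAs that passed the filter on low counts. Of the 47 minor arms 42 passed it. Of these, 4 rose (9.52%) and 8 fell (19.0%), beside 20.7% rising and 19.8% falling among all 217, so that 12 of 42 (28.6%) changed, beside 40.6% of all. The median slope was -0.0017 log2 per h for the 42 and -0.00050 for all. Of the 47 major arms, 13 changed (8 rose and 5 fell), and 14 of 35 other minor arms. With library totals in place of TMM factors 2 rose and 13 fell (15.2% and 31.3% of all), and without the mutant library at 24 h 7 rose (23.7% of all). Without that library and N2 at 23 h 5 rose and 11 fell (23.3% and 27.4% of all).

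Among those that rose, miR-77-3p stood first. It ranged from 148 to 783 CPM in N2 (median 281) and from 133 to 834 CPM in the mutant (median 353), with the highest value at 30 h in both strains. Its slope was 0.20 ± 0.014 log2 per h (SE, adjusted p = 2.22e-12), and that of its major arm miR-77-5p was 0.19 ± 0.023 (adjusted p = 2.29e-07). Both arms of this chromosome II hairpin thus rose, and their ratio was not past the threshold (0.013 ± 0.026 log2 per h, adjusted p = 0.789). That slope is shared by the strains. Fitted by strain, the ratio slope was 0.063 in N2 and -0.037 in the mutant, a difference that was not tested.

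miR-75-3p was lowest in N2 at 59.6 CPM (23 h), had a median of 114 and was highest at 167 CPM, and in the mutant it ranged from 92.8 to 309 CPM (median 132). It rose by 0.078 ± 0.018 log2 per h (adjusted p = 0.000697), and miR-75-5p rose too (0.060 ± 0.018, adjusted p = 0.00645). The ranges of the strains overlapped.

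For miR-82-5p and miR-51-3p the minor arm rose and the major arm was not past the threshold. miR-82-5p, at 3.60 to 14.5 CPM in N2 (median 6.05) and 4.51 to 16.4 CPM in the mutant (median 7.42), had a slope of 0.11 ± 0.026 log2 per h (adjusted p = 0.000697), beside 0.040 ± 0.021 for miR-82-3p. miR-51-3p, at 16.4 to 54.7 CPM in N2 (median 44.2) and 22.1 to 65.1 CPM in the mutant (median 43.7), had a slope of 0.073 ± 0.018 (adjusted p = 0.00171), beside -0.0035 ± 0.019 for miR-51-5p. The rise of miR-75-3p and miR-51-3p was not past the threshold with library totals (adjusted p = 0.0180 and 0.0375) nor in limma with a pseudocount of 8 (adjusted p = 0.0126 and 0.0266).

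**Figure D4:**
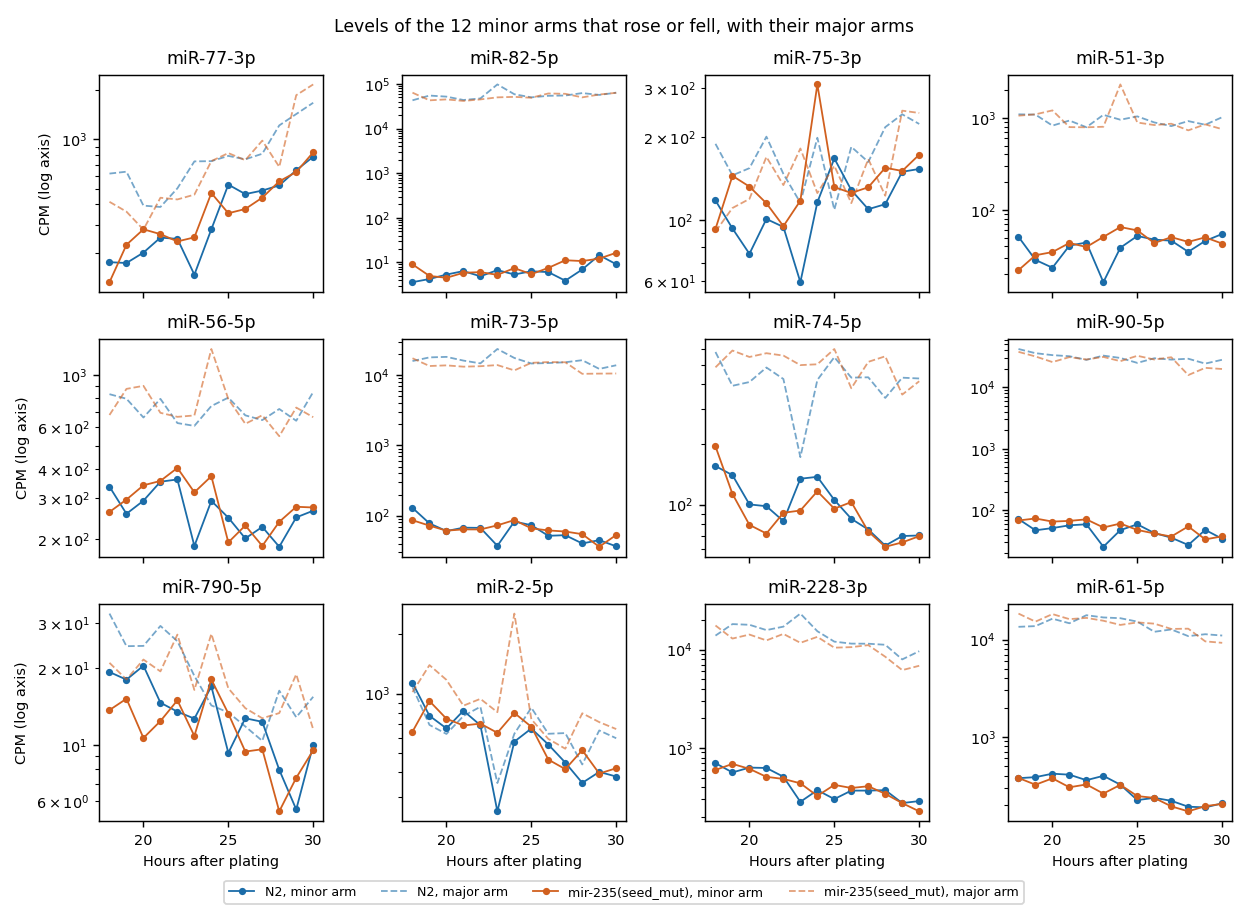
Levels in CPM, on log axes that differ between panels, by hours after plating for the 12 minor arms that rose or fell (points and full lines) and for their major arms (dashed lines), in N2 (blue) and *mir-235(seed_mut)* (orange). miR-77-3p, at upper left, has 133 CPM in the mutant at 18 h and 834 CPM there at 30 h, and miR-228-3p reaches its lowest mutant value of 227 CPM at 30 h.

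Of the 8 that fell, miR-228-3p had the smallest p. It ranged from 276 to 701 CPM in N2 (median 373) and from 227 to 689 CPM in the mutant (median 422), highest at 18 h or 19 h and lowest at 29 h or 30 h. Its slope was -0.085 ± 0.011 log2 per h (adjusted p = 6.63e-07), and miR-228-5p, the guide that glial cells express, fell alongside (-0.081 ± 0.019, adjusted p = 0.0012). miR-790-5p, the neighbour of *mir-228* on chromosome IV, ranged from 5.58 to 20.4 CPM in N2 (median 12.7) and from 5.48 to 18.0 CPM in the mutant (median 10.8). It fell by 0.070 ± 0.020 log2 per h (adjusted p = 0.00473), as did miR-790-3p (slope -0.090 ± 0.019, adjusted p = 0.00027).

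miR-61-5p ranged from 188 to 418 CPM in N2 (median 322) and from 171 to 378 CPM in the mutant (median 261). It fell with a slope of -0.092 ± 0.016 log2 per h (adjusted p = 3.16e-05), and its guide miR-61-3p fell with -0.043 ± 0.013 (adjusted p = 0.00919). The difference of these slopes, taken as the ratio within libraries, was -0.049 ± 0.015 (adjusted p = 0.0171) and missed the threshold. Fitted by strain, it was -0.072 in N2 and -0.026 in the mutant, which was not tested. miR-250-5p, from the neighbouring gene, had a slope of -0.0076 ± 0.017 and was not past the threshold.

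miR-2-5p was highest at 18 h in N2 (1132 CPM, median 572, lowest 255) and at 19 h in the mutant (916 CPM, median 642, lowest 395), and fell with a slope of -0.073 ± 0.014 log2 per h (adjusted p = 9.38e-05). miR-90-5p, at 25.3 to 71.6 CPM in N2 and 33.4 to 73.2 CPM in the mutant, fell with -0.060 ± 0.013 (adjusted p = 0.000669). For both, the slope of the major arm was negative and not past the threshold (-0.045 ± 0.022 for miR-2-3p and -0.030 ± 0.015 for miR-90-3p).

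The other 3 that fell come from clusters on chromosome X. miR-56-5p, at 186 to 360 CPM in N2 (median 257) and 188 to 403 CPM in the mutant (median 276), had a slope of -0.045 ± 0.011 log2 per h (adjusted p = 0.00186). In its cluster miR-54-5p had -0.048 ± 0.016 (adjusted p = 0.015) and miR-55-5p -0.020 ± 0.013, neither past the threshold. miR-73-5p fell with -0.049 ± 0.014 (adjusted p = 0.00517) and miR-74-5p with -0.056 ± 0.017 (adjusted p = 0.00732), while miR-75-3p of the same cluster rose. The call for miR-73-5p was lost without N2 at 18 h, 26 h or 30 h (adjusted p = 0.0192, 0.0159 and 0.0174). That for miR-74-5p was lost without N2 at 27 h, 29 h or 30 h or the mutant at 25 h or 30 h (adjusted p from 0.0117 to 0.0221), and that for miR-56-5p without the mutant at 27 h (adjusted p = 0.0105). Without the filter on low counts the calls of miR-56-5p, miR-73-5p, miR-74-5p, miR-90-5p and miR-790-5p were lost (adjusted p from 0.0181 to 0.0574), and without the 7 h rhythm in the model that of miR-56-5p (adjusted p = 0.077).

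Taken by pairs, both arms fell in 3 hairpins and both rose in 2. In 5 hairpins the minor arm fell while the major arm was not past the threshold, and in 2 it rose. In 7 the major arm was past the threshold and the minor arm was not, 5 of them rising, namely those of miR-80, miR-238, miR-70, miR-64 and miR-65. Neither arm was past it in 23, and in no hairpin did the arms change in opposite directions. Of the 5 hairpins whose minor arm was too low to test, 1 had a major arm that rose, miR-246-3p.

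**Figure D5:**
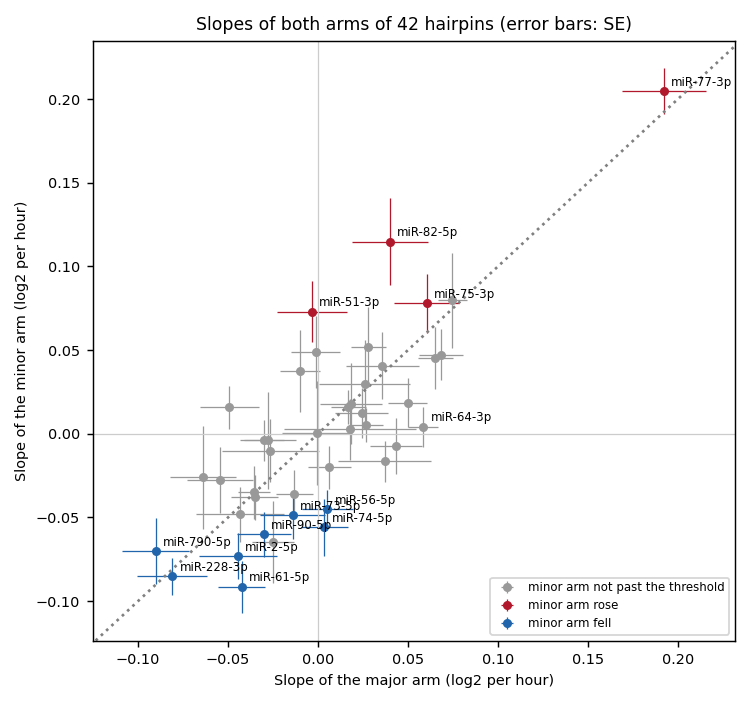
Slope of the minor arm against that of the major arm, in log2 per hour, for the 42 hairpins whose minor arm passed the filter on low counts, with SE bars. Red points rose, blue points fell, grey points were not past the threshold, and the dotted line marks equal slopes. miR-77-3p lies near that line (0.20 beside 0.19), miR-51-3p above it (0.073 beside -0.0035) and miR-64-3p below it (0.0041 beside 0.058).

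A change of the arm ratio itself was tested on the counts of both arms within each library, so that library size and the level of the hairpin cancel, over the 88 hairpins in which both arms sum to at least 130. All 47 minor arms entered this fit. Its slope was shared by the strains, and slopes fitted by strain, which were not tested, differed in sign for some arms, miR-77-3p among them. By edgeR 0 ratios rose, beside 3.41% of the 88, and 1 fell, beside 7.95%. At an unadjusted p under 0.05 there were 11 of 47, beside 30 of the 88. With a pseudocount of 8, limma called 0 rising and 2 falling, beside 4.55% and 14.8% of the 88. Of the 41 other minor arms 9 changed. The median slope of the ratio was -0.0015 log2 per h for the 47 and -0.019 for all 88.

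The ratio that fell was that of miR-64. The share of miR-64-3p ranged from 0.187% to 0.304% in N2 (median 0.225%) and from 0.173% to 0.318% in the mutant (median 0.233%), highest at 21 h or 22 h and lowest at 30 h or 28 h. The ratio to miR-64-5p had a slope of -0.054 ± 0.015 log2 per h (adjusted p = 0.0094). The major arm rose (0.058 ± 0.0082, adjusted p = 1.94e-06) and the level of miR-64-3p had a slope of 0.0041 ± 0.012. The call is narrow, since it was lost in 18 of the 26 fits that leave out 1 library, with the slope between -0.061 and -0.049. It was past the threshold without N2 at 23 h and the mutant at 24 h (slope -0.056, adjusted p = 0.00259), where the ratio of miR-56-5p was as well (slope -0.056, adjusted p = 0.00768).

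Next came the ratios of miR-61-5p, given above, and of miR-56-5p (slope -0.052 ± 0.017, adjusted p = 0.0317). Among positive slopes of a ratio, the smallest p were those of miR-51-3p (0.077 ± 0.026, adjusted p = 0.0317) and miR-46-3p (0.067 ± 0.023, adjusted p = 0.0343). None of these 4 passed the threshold.

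Whether the minor arms differ between the strains was tested as the mean difference over the hours, mutant minus N2, beside a smooth curve of hour. By edgeR, 0 of 42 were higher, beside 2.76% of all 217, and 0 were lower, beside 4.61%. At an unadjusted p under 0.05 there were 13 of 42, beside 75 of 217. DESeq2 called 0 higher and 1 lower, beside 5.07% and 5.99% of all. In limma 0 were higher and 0 lower, beside 1.38% and 0.461% of all. The median difference was 0.00012 log2 for the 42, beside -0.023 for all 217. The latter is 0.10 with library totals as the scale, and differences are to be read relative to it.

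The smallest p was that of miR-250-5p. Its CPM ranged from 750 to 1186 in N2 (median 861) and from 671 to 956 in the mutant (median 835), and the ranges overlapped. The difference was -0.33 ± 0.10 log2 (adjusted p = 0.0326), -0.29 in DESeq2, where it is the call named above (adjusted p = 0.00789), and -0.21 without N2 at 23 h. miR-83-3p (2.72 ± 1.32 CPM in N2 and 4.61 ± 1.77 CPM in the mutant, SD, n = 13) differed by 0.64 ± 0.21 (adjusted p = 0.046), and miR-67-3p (4.29 ± 1.83 and 7.37 ± 2.53 CPM, SD, n = 13) by 0.60 ± 0.21 (adjusted p = 0.0514). Both are of low level, and their ranges overlapped.

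For the arm ratio, edgeR called 0 of 47 higher in the mutant, beside 0.00% of the 88, and 0 lower, beside 1.14%. There were 14 of 47 at an unadjusted p under 0.05, beside 20 of the 88. In limma 0 were higher and 0 lower, beside 0% and 1.14% of the 88. The smallest p were those of miR-54-5p (-0.57 ± 0.18 log2, adjusted p = 0.0804), miR-75-3p (0.55 ± 0.18, adjusted p = 0.0804) and miR-67-3p (0.80 ± 0.26, adjusted p = 0.0804). Without N2 at 23 h and the mutant at 24 h the differences were -0.43, 0.43 and 0.67 (adjusted p = 0.0853 for each). By hour, the share was higher in the mutant at 10 or more of 13 hours for 8 of the 47 and higher in N2 for 5. No such count of the other hairpins is given here.

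A rhythm with a 7 h period was sought within each strain beside a linear term. In N2, edgeR called 0 of 42 levels, beside 5.99% of all 217, with 11 at an unadjusted p under 0.05, beside 49 of all 217. DESeq2 called 2, beside 10.6% of all, and limma 0, beside 7.83%. The smallest p were those of miR-79-5p (amplitude from midline to peak 0.34 ± 0.089 log2, adjusted p = 0.0403), miR-58a-5p (0.37 ± 0.098, adjusted p = 0.0403) and miR-228-3p (0.28 ± 0.077, adjusted p = 0.0442). In the mutant, 0 of 42 were called, beside 2.30% of all, with 9 at an unadjusted p under 0.05, beside 42 of all 217. DESeq2 called 3, beside 9.22% of all, and limma 1, beside 5.07%. There the leading arms were miR-52-3p (0.41 ± 0.098, adjusted p = 0.0261), miR-74-5p (0.45 ± 0.12, adjusted p = 0.0324) and miR-56-5p (0.29 ± 0.082, adjusted p = 0.056).

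Without N2 at 23 h and the mutant at 24 h, 1 level was called in N2, beside 7.76% of the 219 miRNAs then tested, and 4 in the mutant, beside 8.68%, a share like that of all miRNAs. Among the latter were miR-52-3p (amplitude 0.43, adjusted p = 0.00778), miR-74-5p (0.43, adjusted p = 0.00913) and miR-56-5p (0.33, adjusted p = 0.00953). By edgeR the rhythm differed between the strains for 0 of 42, beside 0.461% of all 217. At an unadjusted p under 0.05 there was 1, beside 17 of 217. DESeq2 and limma called 0, beside 0.461% and 0% of all. This test took the timing of the rhythm together with its amplitude, and the amplitude difference alone was not tested. The smallest p were those of miR-87-5p (mutant minus N2 amplitude -0.15, adjusted p = 0.569), miR-238-5p (-0.16, adjusted p = 0.683) and miR-72-3p (-0.14, adjusted p = 0.683). Single libraries moved these values, to -0.30 for miR-87-5p without N2 at 22 h, to -0.081 for miR-238-5p without the mutant at 25 h and to -0.026 for miR-72-3p without the mutant at 24 h.

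For the arm ratio, 0 of 47 were rhythmic in N2 by edgeR, beside 11.4% of the 88. At an unadjusted p under 0.05 there were 3, beside 15 of the 88, and limma called 0, beside 6.82% of the 88. All 10 ratios called belonged to other minor arms, from hairpins that had been set aside by name, such as *let-7*, *lin-4* and miR-44. The 0 among the 47 thus rests in part on how the members were chosen. miR-58a-5p came closest, with an amplitude of 0.59 ± 0.17 log2 (adjusted p = 0.0561), which is 0.35 without the N2 library at 23 h. It was followed by miR-87-5p (0.29 ± 0.096, adjusted p = 0.148) and miR-70-5p (0.33 ± 0.12, adjusted p = 0.262). In the mutant 0 of 47 were called, beside 1.14%. At an unadjusted p under 0.05 there were 7, beside 19 of the 88, and limma called 0, beside 1.14% of the 88.

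The leading ratios in the mutant were those of miR-52-3p (0.51 ± 0.14 log2, adjusted p = 0.0628), miR-56-5p (0.43 ± 0.12, adjusted p = 0.0637) and miR-788-5p (0.56 ± 0.17, adjusted p = 0.0692). miR-788-5p became a call without the mutant library at 24 h (0.62, adjusted p = 0.00458). A difference of the strains in the ratio's rhythm was called for 0 of 47, beside 0.00%. At an unadjusted p under 0.05 there were 2, beside 4 of all 88, and limma called 0, beside 0% of the 88. The smallest p were those of miR-58a-5p (mutant minus N2 amplitude -0.46, adjusted p = 0.662), miR-124-5p (0.013, adjusted p = 0.662) and miR-238-5p (-0.18, adjusted p = 0.755). Here too the p covers timing as well as amplitude. For miR-124-5p the amplitudes were 0.67 in N2 and 0.69 in the mutant, with fitted peaks at 21.1 h and 18.8 h. The amplitude difference of miR-58a-5p was -0.22 without N2 at 23 h, and that of miR-238-5p was -0.094 without the mutant at 25 h. That of miR-124-5p changed sign between fits without single libraries.

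miR-58a-5p was the second most abundant of the 47, at 1108 ± 202 CPM in N2 and 1104 ± 177 CPM in the mutant (SD, n = 13), while it made up 0.861% ± 0.525 and 0.670% ± 0.145 of its hairpin. miR-80-5p, whose guide acts in the response to dietary restriction, was at 474 ± 164 and 428 ± 110 CPM with shares of 5.82% ± 1.57 and 5.45% ± 1.04. At the low end, miR-81-5p (24.0 ± 6.07 and 27.7 ± 6.94 CPM) and miR-66-3p (9.74 ± 3.83 and 11.3 ± 3.16 CPM) came from hairpins with 9483115 and 2698998 major-arm counts. miR-65-3p was at 0.125% of its hairpin in the mutant at 24 h, its highest, beside medians of 0.0357% in N2 and 0.0398% in the mutant.

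Some libraries had 0 reads of a minor arm, namely for miR-246-5p (N2 at 21 h and 22 h, mutant at 20 h), miR-236-5p (N2 at 20 h and 21 h, mutant at 26 h) and miR-392-5p (N2 at 23 h). For miR-236-5p a count of 0 allows a share of up to 0.158%, 0.157% and 0.143% of the hairpin in these libraries. For miR-246-5p it allows up to 9.09%, 12.5% and 3.45%, because the hairpin itself had few reads at those hours, and for miR-392-5p at 23 h it sets no useful limit, with 4 reads of both arms. miR-246-5p reached 7.26 CPM in N2 and 15.1 CPM in the mutant at 30 h, while its ratio to miR-246-3p had a slope of -0.024 ± 0.11 log2 per h.

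Minor arms followed the hour to hour levels of their own major arm only loosely. Over the 13 libraries of a strain, the median Pearson correlation of the log2 CPM (1 added) of both arms was r = 0.33 in N2 and 0.27 in the mutant. It was above 0.5 in both strains for 9 of the 47 hairpins and below 0 in both for 2. Ranks could give another value, as for miR-63 in N2 (r = 0.63, Spearman's rho = -0.33). The points share their libraries and time trend, so these values are descriptions, and the part of counting noise in them was not tested.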

How the data were processed

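Adapters were trimmed and reads aligned to ce10 by the authors with Bowtie in QuasR (up to 100 hits kept), and reads starting within 3 bases of a miRBase 22 5′ end were deposited as raw counts. For Bowtie, no version is given in the sources used here. The deposited log2 values (pseudocount 8) were recovered from the counts within 0.0005 and were otherwise not used. Alleles of miR-235 were summed per arm. Levels were fitted in R 4.3.3 with edgeR 4.0.16 (TMM, filterByExpr, robust quasi-likelihood), and ratios in an edgeR fit with 2 columns per library and a term for each library. The strain test used a cubic B-spline of hour with 6 components. No hour has a replicate, so p-values measure the spread of libraries about the curves. Intervals and floors (3 counts) cover counting error only. Alternatives used limma 3.58.1 and DESeq2 1.42.0. The members and lists were chosen with earlier results of these data known, and the text names the largest sums, the extreme ratios, arms that led a hairpin and, for each test, the smallest p. Seed families could not be built from sequences, which were not used here. The fits were also run on simulated counts drawn with a fixed dispersion and no library that stands apart. The outcome is not given here, and such a run does not cover libraries like N2 at 23 h.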

Additional observations from a re-analysis of the deposited data

How the results depend on the processing

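For 39 estimates of single arms, 1389 alternatives kept direction and side of the threshold in 1303, fell short of it in 40, passed it in 31 and changed sign in 15. Sign changes were those of the strain difference in the ratio rhythm amplitude of miR-124-5p (0.013), which was not itself tested. It was -0.090 in limma with a pseudocount of 1 and -0.39 with a period of 8 h. Without N2 at 23 h and the mutant at 24 h it was -0.017, and leaving out single libraries it was between -0.21 and 0.22. Percentages in brackets are the shares called over all miRNAs or hairpins tested in the same setting. Steadily changing levels (4 rose, 8 fell, beside 20.7% and 19.8%) became 2 and 13 with library totals (15.2% and 31.3%). Without the filter 3 fell (7.2%). In limma with a pseudocount of 8, 2 rose (15.2%), and at a threshold of 0.05, 7 rose (26.7%). Leaving out single libraries, 4 to 7 rose. For fits without single libraries the shares over all are not given in this section. Falling ratios (1, beside 7.95%) became 0 without the minimum sum (3.77%) and with a period of 6.5 h (6.82%). Without a rhythm in the model 0 fell (6.82%) and 1 rose (3.41%). There were 2 falling at a mean of at least 50 counts (14.8%) and in limma with a pseudocount of 8 (14.8%) or 1 (10.2%). At 0.05, 3 fell (12.5%) and 2 rose (5.68%). Leaving out single libraries gave 0 to 1 rising and 0 to 2 falling. For the strain difference in levels (0, beside 2.76% higher and 4.61% lower), 1 was lower in DESeq2 (5.99%). At 0.05, 1 was higher (7.83%) and 1 lower (8.29%). Leaving out single libraries, 0 to 1 were lower. Rhythmic levels in N2 (0, beside 5.99%) were 1 at a mean of at least 50 counts (9.04%), 2 in DESeq2 (10.6%) and 3 at 0.05 (11.5%). In the mutant (0, beside 2.3%) they were 1 with library totals (4.15%) and in limma (5.07%), 3 in DESeq2 (9.22%) and 2 at 0.05 (10.6%). Leaving out single libraries gave 0 to 2 rhythmic levels in either strain. Rhythmic ratios in the mutant (0) were 0 to 1 leaving out single libraries. The fit without N2 at 23 h and the mutant at 24 h was an alternative chosen after seeing the data. In it 1 level was lower in the mutant strain (5.94%), and 1 level in N2 (7.76%) and 4 in the mutant (8.68%) were rhythmic. In the same fit 2 ratios fell (10.2%) and 1 ratio was rhythmic in the mutant (5.68%). With the hour as a block, pairing the strains, the strain differences stayed at 0 for levels (0% higher and 0.461% lower) and for ratios (0% each). Causes were not tested. Changes of the rarest arms (miR-236-5p, miR-392-5p, miR-232-5p) may lie below what this depth can show.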
